A study of Mus musculus with 24 samples.

Results

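The pulldown-to-input ratio of a gene is the share it takes of ribosome-bound RNA in labelled neurons, relative to the share it takes of all RNA in the same hippocampus. It was compared here between eIF2α conditional knock-in (cKI) and control mice taken 1 h after fear conditioning. The comparison used 12 of the 24 libraries of the study: an input and an immunoprecipitate (IP) library from each of 3 cKI and 3 control mice, paired by the mouse number in the sample titles. For each mouse, log2 CPM of the input (counts per M, so that libraries of unequal depth compare) was subtracted from log2 CPM of the IP. The 3 cKI ratios were then compared with the 3 control ratios. Of 51733 genes in the table, 14024 had a CPM of 1 or more in at least 6 of the 12 libraries and were tested.

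The factor eIF2 brings the initiator tRNA to the ribosome. Phosphorylation of its alpha subunit, eIF2α, lowers general translation initiation and lets certain mRNAs with upstream open reading frames, of which Atf4 is the best known, be translated more. In the brain this switch is known for its part in long-lasting synaptic plasticity and memory. RiboTag adds an HA epitope to the ribosomal protein Rpl22 once Cre recombinase acts, so that ribosomes of Cre-positive cells, with the mRNAs bound to them, can be pulled down from a lysate. The ratio of pulled-down to total mRNA rises with ribosome loading in the tagged cells. It also rises with the share of a transcript that sits in tagged cells, and in bulk tissue these parts, like fewer cells of a type and less RNA per cell, cannot be told apart.

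All mice were adult C57BL/6 males of 2 to 3 months, and all carried Cre under the CaMKIIα promoter, which is active in excitatory forebrain neurons. cKI mice were eIF2α A/A, with the phosphorylated serine replaced by alanine in both alleles, and carried a floxed transgene (fTg) that Cre removes in the cells where it is active. Cells without Cre in cKI mice therefore keep the transgene beside the A/A alleles. Control mice were labelled as CaMKIIα-Cre+ without the knock-in. Fear conditioning paired a tone with a foot shock, and the labels do not say which of the study's training strengths these mice received. Each lysate held the pooled hippocampi of 1 mouse, and the tagged ribosomes were pulled down with an antibody to the HA tag.

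The inputs held 28.8 to 34.7 M counts each and the IPs 30.6 to 36.2 M, so that 1 count equalled at most 0.0347 CPM. Genes with a count numbered 22130 to 22476 in inputs and 19924 to 20353 in IPs. The lane in the description label was 4 for all cKI inputs and 5 for all control inputs, so lane and genotype cannot be told apart in the inputs. Among the IPs, cKI replicate 1 was on lane 5 and the other 5 on lane 6. Eif2s1, which encodes eIF2α, is counted at gene level, and such counts do not separate the alanine allele, the serine allele and the transgene. The genotype labels could therefore not be checked from it.

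The pulldown enriched excitatory neuron transcripts in both genotypes. Of 20 excitatory neuron markers, 18 were higher in IP than in input in control mice and 18 in cKI mice, against 36% and 37.1% of all genes tested. All 23 astrocyte, 21 oligodendrocyte, 13 oligodendrocyte precursor and 22 microglia markers tested were lower in IP in both genotypes, against 37.7% and 39.2% of all genes. Over all genes, 5053 were higher and 5288 lower in the IPs of control mice, and 5201 were higher and 5496 lower in those of cKI mice (edgeR, adjusted p under 0.05). With plain library totals in place of TMM scaling the split was 3344 higher and 6674 lower in control mice, and 3603 and 6824 in cKI mice.

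The defining markers of the tagged cells had close ratios in the 2 genotypes. Slc17a7, the vesicular glutamate transporter of excitatory neurons, had log2 ratios of 0.41, 0.50 and 0.47 in cKI mice and 0.46, 0.47 and 0.54 in controls. Camk2a, whose promoter drives Cre, had ratios of 0.84, 0.55 and 0.82 in cKI mice and 0.93, 0.92 and 0.88 in controls. The 3 cKI values for Camk2a lay below the 3 control values, and the difference of -0.17 (SE 0.08) had an adjusted p of 0.93 in edgeR. Without cKI replicate 2 the Camk2a difference was -0.08. Rpl22, the gene that RiboTag modifies, had the highest ratios of these genes, at 2.09, 2.48 and 2.09 in cKI mice and 2.14, 2.12 and 2.08 in controls, with a difference of 0.10 (SE 0.10). Its paralog Rpl22l1 differed by 0.14 (SE 0.29) and the groups overlapped. Neither difference kept its sign when cKI replicate 2 was left out.

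Gad1, Gfap and Mbp, markers of cells that should lack the tag, had ratios below 0 in every mouse. Gad1, which makes GABA in inhibitory neurons, had ratios of -1.42, -2.43 and -1.70 in cKI mice and -1.37, -1.87 and -1.73 in controls, and the difference was -0.19 (SE 0.30). Gfap, an astrocyte filament protein, stood at -3.17, -3.33 and -3.29 against -3.35, -3.52 and -3.60. These groups did not overlap, and the difference was 0.22 (SE 0.08, adjusted p 0.93 in edgeR). Mbp, a myelin protein, stood at -3.57, -3.64 and -3.64 against -3.33, -3.39 and -3.64, a difference of -0.16 (SE 0.08).

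No gene passed the test for a different ratio between genotypes. edgeR called 0 of 14024 genes higher (0%) and 0 lower (0%) in cKI mice at an adjusted p of 0.05, and limma on the per-mouse ratios also called 0. DESeq2 called 0 higher and 1 lower, which was Wnt4. At an unadjusted p under 0.05 edgeR had 602 genes (4.29%), limma 580 and DESeq2 209. All 3 cKI ratios lay above all 3 control ratios in 666 genes (4.75%) and below them in 855 (6.1%). The median difference over all genes was 0.00, with 7106 genes positive and 6918 negative.

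The data bound the size of the difference for most genes. The 95% confidence interval of the difference lay within 2-fold in either direction for 12600 genes (89.8%) and within 1.5-fold for 10420 (74.3%). The median SE was 0.114 on the log2 scale, where 1 unit is a 2-fold difference. Precision was higher at higher expression levels, but genes that varied between mice, such as Prox1, had wide intervals at high levels too. Among 11245 genes with a mean log2 CPM of 2 or more, 98.3% had an interval within 2-fold, and 1 gene, Wnt4, differed by more than 1 unit. Among the 2779 genes under that level 55.7% had such an interval, and 67 differed by more than 1 unit, none past the threshold.

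**Figure D1:**
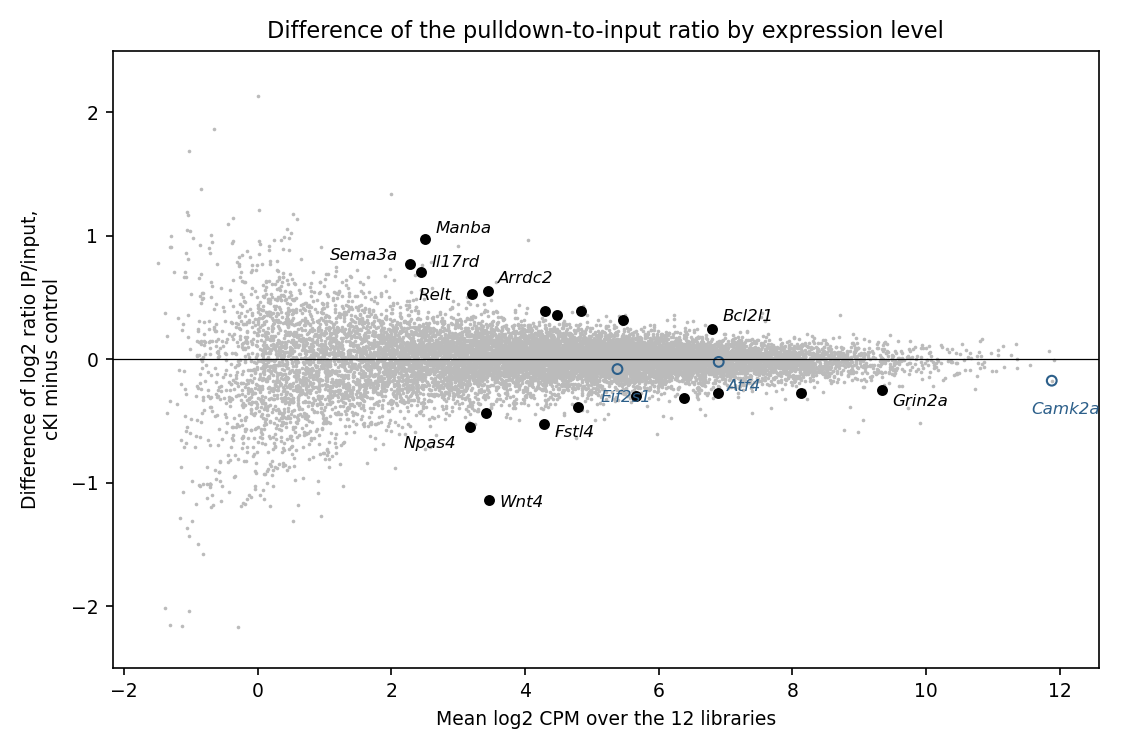
Difference of the log2 IP-to-input ratio between cKI and control mice (y axis, log2) against mean log2 CPM over the 12 libraries (x axis), 1 grey point per tested gene. Black points are the 10 genes with the smallest p in each direction chosen by the naming rule, open circles are Eif2s1, Atf4 and Camk2a. The cloud narrows around 0 with rising level, Wnt4 at -1.14 and Manba at 0.97 lie outside it, and no gene passed the threshold in edgeR.

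Wnt4 (ENSMUST00000045747 in the table), a secreted ligand of the Wnt family, had the smallest p. It stood at 4.45, 4.80 and 5.35 CPM in the IPs of cKI mice and at 16.4, 11.7 and 13.4 CPM in those of control mice. In the inputs it stood at 14.3, 11.8 and 12.8 CPM in cKI mice and at 17.4, 16.2 and 15.9 CPM in controls. Every cKI library was below every control library of its fraction, with the wider gap in the IPs. The log2 ratios were -1.67, -1.28 and -1.25 in cKI mice and -0.08, -0.47 and -0.25 in controls, and they did not overlap.

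The Wnt4 ratio differed by -1.14 (SE 0.15, 95% interval -1.48 to -0.80), with a p of 2.15e-05 and an adjusted p of 0.30 in edgeR. The call depended on the tool and the filter. The adjusted p was 0.0013 with the DESeq2 Wald test, 0.00107 with edgeR without a filter on low counts, and 0.92 with limma. Within the IPs Wnt4 fell by 1.51 (SE 0.13, adjusted p 0.000155 in edgeR), while its input difference of -0.35 (SE 0.12) had an adjusted p of 0.43. Tests within a fraction, here and below, come from a fit of the 12 libraries without a mouse term. That fit called 21 genes higher and 14 lower in IP, against 3 and 2 with the 6 IPs fitted alone.

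Manba (ENSMUST00000029814), the lysosomal enzyme beta-mannosidase, had the smallest p among genes with a higher ratio in cKI mice. Its IP level was 5.62, 6.84 and 6.62 CPM in cKI mice and 2.29, 2.10 and 1.79 CPM in controls. Its input level was 9.86, 11.5 and 11.2 CPM in cKI mice and 7.44, 6.65 and 6.70 CPM in controls. All cKI libraries were above all control libraries of the same fraction. The ratios were -0.81, -0.75 and -0.76 in cKI mice and -1.67, -1.64 and -1.87 in controls.

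The Manba ratio differed by 0.97 (SE 0.14, 95% interval 0.66 to 1.29), with a p of 4.61e-05 and an adjusted p of 0.32 in edgeR. Manba rose within both fractions in the joint edgeR fit of the 12 libraries, by 1.62 in IP (adjusted p 0.000118) and by 0.65 in input (adjusted p 0.0418).

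**Figure D2:**
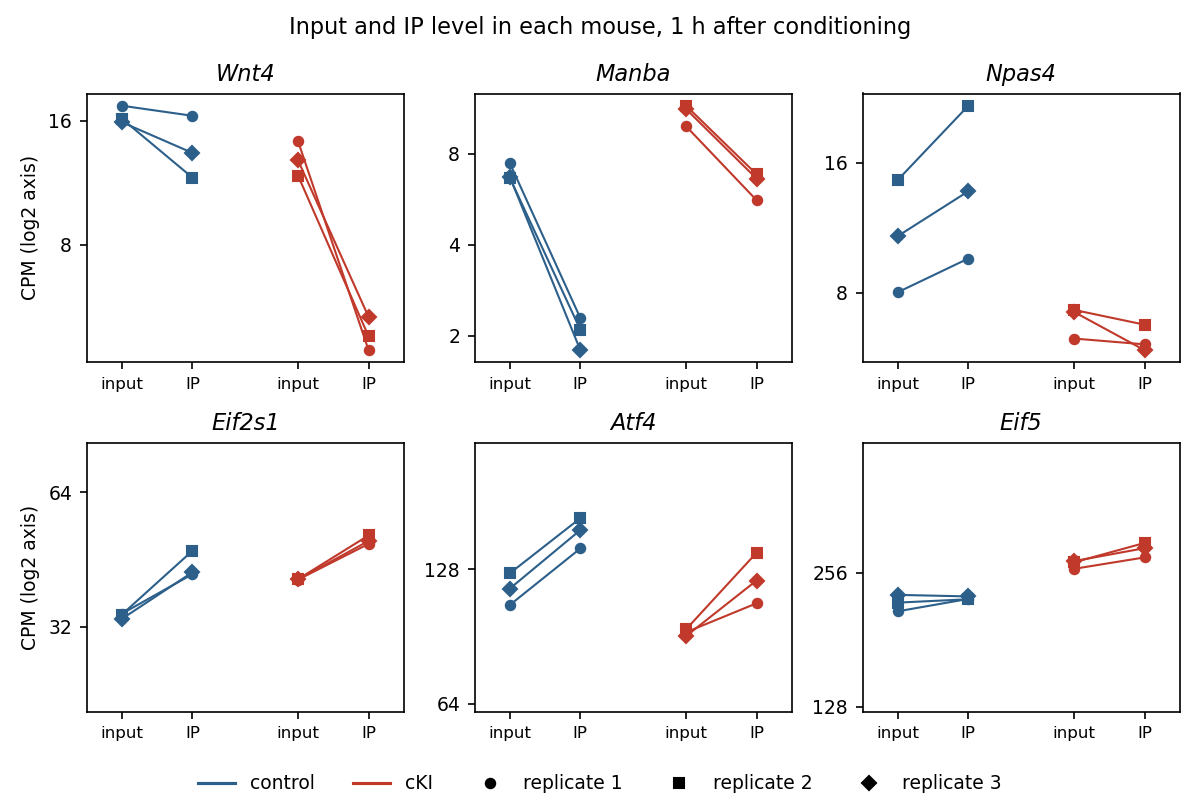
Level in CPM (log2 axis) of 6 genes in the input and IP library of each mouse, control in blue and cKI in red, with a line joining the libraries of 1 mouse and a marker shape for each replicate. The lines of Wnt4 fall steeply in cKI mice and little in controls, those of Manba fall less in cKI mice, those of Npas4 rise in controls, and those of Eif2s1, Atf4 and Eif5 have like slopes in the 2 genotypes.

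The other genes with the smallest p and a higher ratio in cKI mice were Ezr, Relt, Rhou, Jam3, Il17rd, Tsc22d3, Arrdc2, Sema3a and Bcl2l1. Each had all 3 cKI ratios above all 3 control ratios, which the naming rule required, and an adjusted p of 0.93 in edgeR. Il17rd, an inhibitor of FGF signalling at the membrane, had ratios of -0.94, -1.29 and -1.12 in cKI mice against -1.55, -1.79 and -2.13. Sema3a, a secreted axon guidance protein, stood at 0.74, 0.77 and 0.22 against -0.28, -0.39 and 0.11. Relt, a receptor of the TNF receptor family, stood at -0.17, 0.05 and -0.17 against -0.54, -0.65 and -0.68.

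These genes differed in which fraction carried the difference. Il17rd rose by 1.20 in IP (SE 0.12, adjusted p 0.000907 in edgeR) and Relt rose by 0.55 in IP (SE 0.08, adjusted p 0.0124), while Relt inputs differed by 0.02. Tsc22d3, a transcription regulator induced by glucocorticoids, fell by 0.47 in input (SE 0.06, adjusted p 0.0152 in edgeR) and differed by -0.11 in IP. Its ratio difference was 0.36 (SE 0.09). The remaining members had ratio differences of 0.25 (Bcl2l1, a survival protein of the BCL2 family), 0.32 (Rhou), 0.39 (Ezr, which links membrane to actin), 0.39 (Jam3, a junctional adhesion molecule) and 0.55 (Arrdc2, of the arrestin domain family).

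The genes with the smallest p and a lower ratio, after Wnt4, were Npas4, Fstl4, Cadm2, Zc3h12b, Kcnj6, Kctd12, Grin2a, Snhg14 and Epha6, all with an adjusted p of 0.93 in edgeR. Npas4, a transcription factor induced by neuronal activity, stood at 6.08, 6.75 and 5.90 CPM in cKI IPs and at 9.61, 21.7 and 13.8 CPM in control IPs. Its ratios were -0.04, -0.11 and -0.29 in cKI mice and 0.26, 0.57 and 0.34 in controls, a difference of -0.55 (SE 0.14). The IP levels of Npas4 varied over 2-fold among control mice, and its IP and input differences did not pass.

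Grin2a, an NMDA receptor subunit, had ratios of 0.63, 0.51 and 0.64 in cKI mice against 0.74, 0.88 and 0.90, a difference of -0.25 (SE 0.07). Kctd12, an auxiliary subunit of GABA-B receptors, differed by -0.28, and Kcnj6, the potassium channel GIRK2, by -0.30. Cadm2, a synaptic adhesion protein, differed by -0.27, Epha6, an ephrin receptor, by -0.31, and Fstl4 by -0.53. Zc3h12b, which encodes a zinc finger protein, differed by -0.43. Snhg14, a long noncoding RNA that overlaps other genes in antisense, differed by -0.38, and since the strand setting of the counts is not given, its reads may include theirs.

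Eif2s1 did not differ in ratio between genotypes beyond its error. It stood at 49.0, 51.2 and 49.7 CPM in cKI IPs and at 41.9, 47.3 and 42.3 CPM in control IPs. In the inputs it stood at 40.8, 40.9 and 40.8 CPM in cKI mice and at 34.2, 34.0 and 33.3 CPM in controls. Both fractions were higher in all cKI libraries, by 0.19 in IP (adjusted p 0.21 in edgeR) and 0.27 in input (adjusted p 0.11). The ratios of 0.27, 0.32 and 0.29 against 0.29, 0.47 and 0.35 overlapped, and their difference was -0.08 (SE 0.08, 95% interval -0.25 to 0.09).

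Atf4, the transcription factor translated through upstream open reading frames when eIF2α is phosphorylated, had lower levels in cKI mice in both fractions. The IPs held 107, 139 and 121 CPM in cKI mice and 142, 167 and 157 CPM in controls. The inputs held 92.5, 93.9 and 90.7 CPM against 106, 125 and 116 CPM. The groups did not overlap in either fraction, and neither difference passed (-0.34, adjusted p 0.18 in IP, and -0.33, adjusted p 0.27 in input, edgeR). The ratios of 0.21, 0.57 and 0.41 against 0.42, 0.41 and 0.43 overlapped, with a difference of -0.02 (SE 0.09, 95% interval -0.21 to 0.17), whose sign reversed without cKI replicate 1 and in the fit of all 24 libraries with lane and no mouse term.

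Eif5, an initiation factor that acts on eIF2 at start codon recognition, rose in both fractions. Its IP level was 277, 298 and 290 CPM in cKI mice and 223, 223 and 226 CPM in controls, a rise of 0.36 (SE 0.04, adjusted p 0.00246 in edgeR). Its input level was 261, 270 and 272 CPM against 210, 219 and 228 CPM, a rise of 0.29 (SE 0.04, adjusted p 0.0189). The difference of ratios was 0.07 (SE 0.06, 95% interval -0.05 to 0.20).

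The gene lists of the eIF2 pathway had medians close to that of all genes. Of 29 genes of eIF2, its exchange factor eIF2B, its kinases and phosphatases, 3 had all cKI ratios above the controls (4.75% of all genes) and 0 had them below (6.1%), and the median difference was 0.03. These were the eIF2B subunits Eif2b2 at 0.24, Eif2b4 at 0.21 and Eif2b5 at 0.06. Of 26 other transcripts listed for upstream open reading frames or eIF2α sensitivity, 0 lay apart in either direction, with a median of 0.04.

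Of 44 ATF4 target genes, 3 lay above and 2 below, against 4.75% and 6.1% of all genes, and the median was 0.05. Slc7a11, the cystine transporter, differed by -0.31 (SE 0.10), while its partner subunit Slc3a2 differed by 0.20 (SE 0.08). The others that lay apart were Gars and Slc7a5 above and Vldlr below. None of these lists held a gene past the threshold in the ratio. The medians of the 3 lists were -0.02, -0.01 and -0.01 when cKI replicate 2 and control replicate 3 were left out together.

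Immediate-early genes, which neurons induce after activity, had a median difference of -0.03 over 48 members, with 0 above and 4 below, against 4.75% and 6.1% of all genes. The 4 were Npas4, Klf10 at -0.24 (SE 0.08), Egr3 at -0.31 (SE 0.10) and Fos at -0.24 (SE 0.12), all transcription regulators. Fos had ratios of 0.13, 0.40 and 0.42 in cKI mice against 0.47, 0.48 and 0.73. Arc, whose protein acts at synapses, had ratios of 1.28, 1.65 and 1.43 against 1.47, 1.49 and 1.57, which overlapped, with a difference of -0.06 (SE 0.09) that changed sign without cKI replicate 1. Control replicate 2 had the highest IP level of Fos, Arc and Npas4 among the 6 mice, at 39.6, 776 and 21.7 CPM. The list median changed sign without cKI replicate 1, without control replicate 2 and in the fit of all 24 libraries with lane and no mouse term. In naive mice the list median was -0.16. Naive differences were -0.53 (SE 0.29) for Fos, -0.47 (SE 0.12) for Egr3 and -0.10 (SE 0.11) for Klf10, so the negative side was not particular to conditioned mice.

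Synaptic genes tended to the negative side without passing the test. Of 45 synaptic plasticity genes 35 had a negative difference (6918 of 14024 over all genes). The list's median ratio per mouse was 0.32, 0.35 and 0.44 in cKI mice and 0.37, 0.38 and 0.53 in controls, which overlapped. Of the 45, 9 had all cKI ratios below the controls (6.1% of all genes) and 0 above (4.75%), and the median was -0.05. That median was -0.03 without cKI replicate 2 and control replicate 3, -0.20 in the 24-library fit with lane and -0.28 in naive mice. Single naive mice stood apart for members of the list. Naive Camk2a ratios were 0.85, 0.31 and 0.85 in cKI mice and 0.89, 1.29 and 0.85 in controls. The 9 included the NMDA receptor subunits Grin2a and Grin2b (-0.22), the transcription factor Creb1 (-0.23) and the scaffolds Bsn and Shank3. Of 30 mRNAs listed as localised to dendrites, 26 had a negative difference, 6 lay below (6.1% of all genes) and 0 above (4.75%). Their median was -0.06, with -0.18 in the 24-library fit with lane and -0.22 in naive mice. The median ratio of this list per mouse was 0.26, 0.22 and 0.17 in cKI mice and 0.33, 0.27 and 0.34 in controls, which did not overlap. Tnik, a synaptic kinase, had ratios of -0.37, -0.72 and -0.44 against -0.29, -0.21 and -0.21, a difference of -0.27 (SE 0.09). Bsn, a presynaptic scaffold, differed by -0.21 (SE 0.07), and Shank3, a postsynaptic scaffold, by -0.15 (SE 0.07). The lists share genes, Camk2a, Bsn and Shank3 among them, so their counts are not separate results.

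Nuclear genes of oxidative phosphorylation were on the positive side throughout. All 74 tested had a positive difference (7106 of 14024 over all genes), and the median was 0.13, with 0 past the threshold. All cKI ratios lay above the controls in 13 (4.75% of all genes) and below them in 0 (6.1%). Atp5l, an ATP synthase subunit, had ratios of 0.97, 1.15 and 0.91 in cKI mice against 0.68, 0.77 and 0.66, a difference of 0.31 (SE 0.08). Sdhc, of respiratory complex II, stood at 0.22, 0.43 and 0.17 against -0.04, 0.04 and 0.05. Cox7c and Cox4i1, of complex IV, differed by 0.22 and 0.19.

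The list's median ratio per mouse was 0.30, 0.63 and 0.39 in cKI mice and 0.26, 0.33 and 0.30 in controls, so that cKI replicate 2 stood apart from the other 5 and cKI replicate 1 lay within the control range. Without cKI replicate 2 the median difference was 0.04. It was 0.36 in the fit of all 24 libraries with lane and no mouse term, which changes 3 choices at once, and 0.32 in naive mice. Naive Atp5l ratios were 0.95, 1.33 and 0.92 in cKI mice and 0.84, 0.21 and 0.63 in controls, with replicate 2 of each genotype at the extremes. Mitochondrial ribosomal protein genes went the same way, with 64 of 75 positive (7106 of 14024 over all genes). Of these 75, 11 lay above (4.75% of all genes) and 0 below (6.1%), and the median was 0.08. That median was 0.01 without cKI replicate 2, -0.0010 without cKI replicate 2 and control replicate 3, 0.27 in the 24-library fit with lane and 0.23 in naive mice. Mrps9 of this list differed by 0.22 (SE 0.08).

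The 12 tested transcripts of the mitochondrial genome went the other way. They are made inside mitochondria and are not read by cytosolic ribosomes. Their summed level was 403.1 to 704.2 CPM in cKI IPs and 765.1 to 961.8 CPM in control IPs, against 20510 to 23220 CPM in the inputs of either genotype. The median difference was -0.50, with 4 below (6.1% of all genes) and 0 above (4.75%). mt-Co1, of complex IV, had ratios of -4.66, -5.13 and -4.73 against -4.34, -4.37 and -4.65 and differed by -0.39 (SE 0.13), mt-Atp8 by -0.60 (SE 0.22) and mt-Nd4l by -1.27 (SE 0.40), with an adjusted p of 0.93 for each in edgeR. cKI replicate 2 again had the lowest list median, -5.67, and without it the median difference was -0.21. The median was -0.83 in the 24-library fit with lane and -0.55 in naive mice.

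Cytosolic ribosomal protein genes, whose mRNAs are regulated at initiation, had a median difference of 0.06 over 73 members. Of these, 3 lay above (4.75% of all genes) and 2 below (6.1%). Rpl34 differed by 0.40 (SE 0.12), with Rpl23a and Fau also above, and Rps13 was among those below. Genes of this family can share reads with processed pseudogenes, so their values are uncertain. Endoplasmic reticulum folding genes had a median of 0.06 over 23 members, and Hspa5, the chaperone BiP, differed by 0.13 (SE 0.07). Heat shock genes had a median of 0.06 over 20 members, with Hspa1b at 0.51 (SE 0.17). Cholesterol synthesis genes had a median of 0.12 over 22 members, with 3 above (4.75% of all genes) and 0 below (6.1%). Cyp51 was among those above, as was Msmo1 at 0.20 (SE 0.10). mTOR pathway genes had a median of -0.03 over 27 members, with Rictor at -0.20 (SE 0.07). The medians of the first 4 of these lists depended on the libraries used. Without cKI replicate 2 they were 0.01 for cytosolic ribosomal, 0.02 for folding, 0.01 for heat shock and 0.06 for cholesterol genes. In the 24-library fit with lane they were 0.26, 0.17, 0.22 and 0.14, and without cKI replicate 2 and control replicate 3 the cytosolic ribosomal median was -0.07 and the folding median -0.01.

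**Figure D3:**
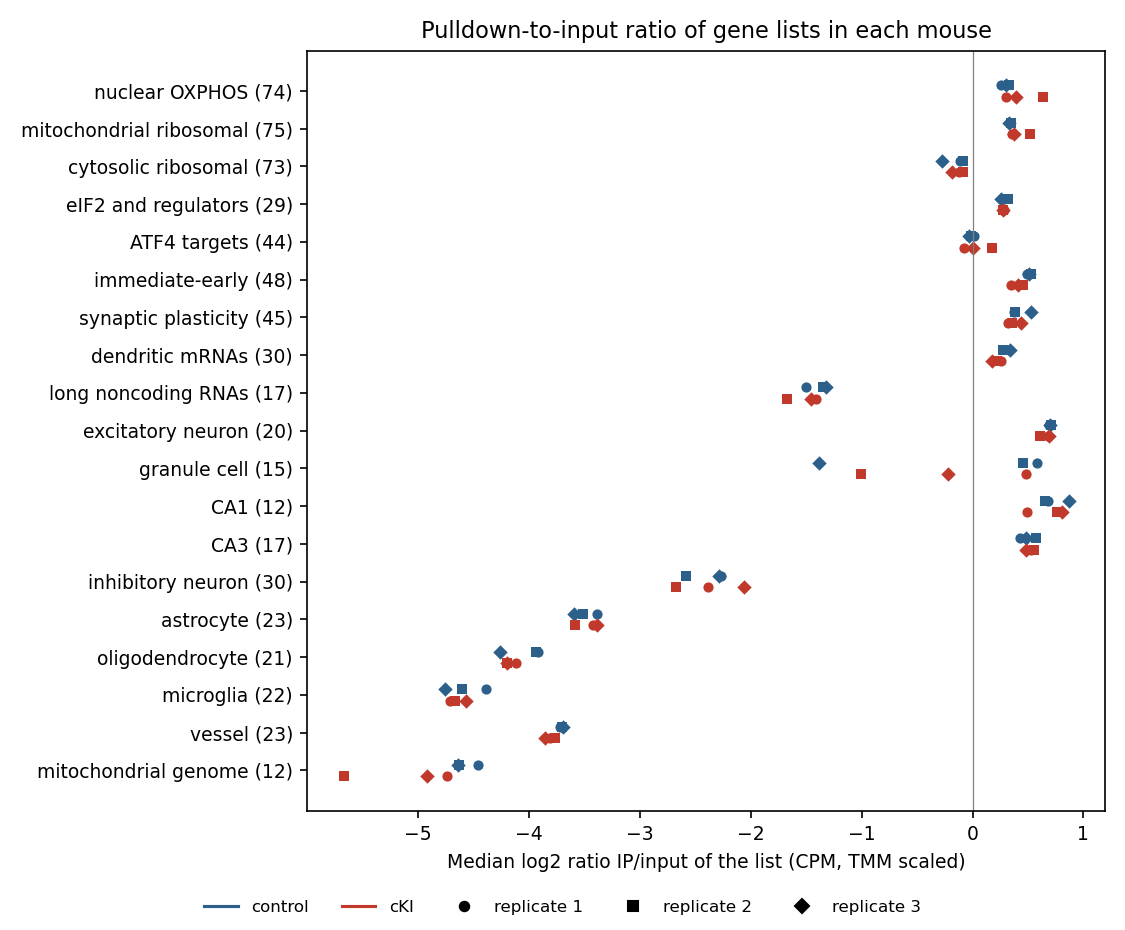
Median log2 IP-to-input ratio of each gene list in each mouse (x axis), with the number of tested genes in brackets, control in blue, cKI in red and a marker shape for each replicate. Lists of other cell types and of the mitochondrial genome lie far below 0 in both genotypes, cKI replicate 2 stands apart for oxidative phosphorylation and the mitochondrial genome, and the granule cell list spreads from -1.38 to 0.58.

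When the genotypes were compared within each fraction, few genes passed. In the IPs 21 genes rose (0.15%) and 14 fell (0.0998%), and in the inputs 10 rose (0.0713%) and 4 fell (0.0285%), with edgeR over the same 12 libraries. The 4 that fell in inputs were Hif3a, Sparc, Hspb1 and Tsc22d3. All 35 genes called in IP had the same sign in input, and all 14 called in input had the same sign in IP. The share of all genes with equal signs was not counted, and both fractions come from the same mice. The equal signs are therefore not a result about the called genes. The median size of the difference among the 35 was 0.65 in IP and 0.19 in the ratio. Among the 14 it was 0.61 in input and 0.12 in the ratio. The IP difference minus the input difference is the ratio difference, so these values are parts of 1 sum.

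Examples chosen after their values were seen show the range. Serpina3n, a secreted protease inhibitor, rose by 0.41 in IP (adjusted p 0.0115 in edgeR) and by 0.56 in input (adjusted p 0.00133), and its ratio differed by -0.16 (SE 0.08). Etnppl, an astrocyte-enriched enzyme of phospholipid metabolism, rose by 1.43 in IP (adjusted p 0.00246) and by 1.06 in input (adjusted p 0.000534), and its ratio differed by 0.38 (SE 0.20). Mospd3 fell by 1.11 in IP (adjusted p 0.0411), differed by -1.05 in input (adjusted p 0.11), and its ratio by -0.10 (SE 0.18), a sign that some alternatives reversed. Map3k6, a stress-activated kinase, fell by 2.45 in IP (adjusted p 0.00273), from 2.23, 1.39 and 1.55 CPM in controls to 0.185, 0.420 and 0.333 CPM in cKI mice, and its ratio differed by -1.31 (SE 0.33, adjusted p 0.93).

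**Figure D4:**
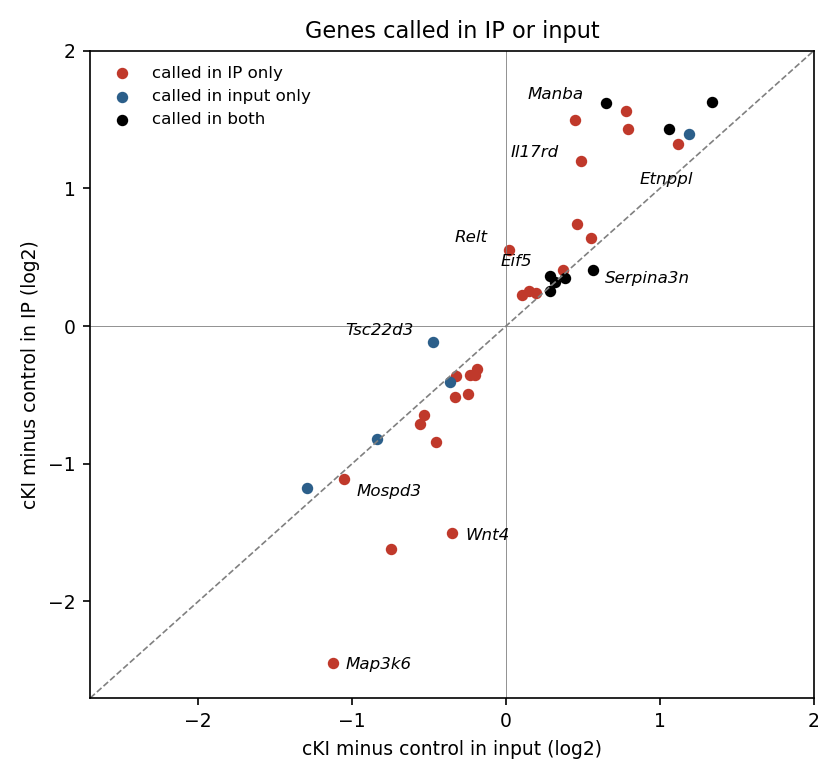
Difference between cKI and control mice in IP (y axis, log2) against that in input (x axis, log2) for the genes called in either fraction, coloured by where they were called, with 2 genes at near 0 CPM in 1 genotype lying beyond the axes. Points on the dashed line have the same difference in both fractions and so a ratio difference of 0, every gene lies in a quadrant of equal sign, and Wnt4, Manba, Il17rd, Relt and Map3k6 lie off the line.

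The counts within fractions depended on the model. Fitting the 6 libraries of a fraction alone gave 3 higher and 2 lower in IP and 210 higher and 273 lower in input. The inputs of the 2 genotypes also differed in lane, as given above, and its part in the input calls was not tested.

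No marker of another cell type passed the test of the ratio. Astrocyte markers had a median ratio difference of 0.02 over 23 genes with 2 above and 1 below, and microglia markers -0.07 over 22 with 0 in either direction. Over all genes 4.75% lay above and 6.1% below. In the IPs the summed astrocyte level was 1180 to 1281 CPM in cKI mice and 1298 to 1397 CPM in controls, and in the inputs 9999 to 10050 against 10250 to 10960 CPM. Oligodendrocyte markers had a median of -0.11 over 21 genes, with 1 below, Mobp, a myelin protein. Mobp fell by 0.84 in IP (adjusted p 0.0141 in edgeR), and its summed list stood at 379.5 to 386.5 CPM in cKI IPs and 395.2 to 513.4 CPM in control IPs, and at 4883 to 5092 against 5317 to 6145 CPM in inputs. The astrocyte and oligodendrocyte sums were thus lower in cKI mice in both fractions, and their part in the results on single genes was not tested. No marker of these lists was at 0 in all IPs.

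Vessel markers had a median of -0.13 over 23 genes, with 8 positive (7106 of 14024 over all genes). Of the 23, 1 lay above (4.75% of all genes) and 4 below (6.1%). The 1 above was Itm2a at 0.27 (SE 0.11). The 4 below were the endothelial genes Tek, Cdh5, Kdr and Vwf. Tek, the angiopoietin receptor, stood at 0.340, 0.330 and 0.423 CPM in cKI IPs and at 0.654, 0.740 and 0.739 CPM in control IPs. Its ratio differed by -1.02 (SE 0.23, adjusted p 0.93 in edgeR). Cdh5, of endothelial junctions, differed by -0.71 (SE 0.26) and Kdr, a VEGF receptor, by -0.52 (SE 0.21). In naive mice Cdh5 differed by 0.21 (SE 0.29) and Kdr by 0.51 (SE 0.34), and the list median was 0.03. The summed vessel level was 315.8 to 396.9 CPM in cKI IPs and 345.4 to 357.1 CPM in control IPs, which overlapped, and the list median changed sign without control replicate 1 and, at 0.18, in the 24-library fit with lane.

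Dentate granule cell markers were the most variable of the lists in the ratio, and their values in the 2 genotypes overlapped. Prox1, the transcription factor that defines granule cells, had ratios of 0.15, -2.39 and -1.02 in cKI mice and 0.11, 0.05 and -2.15 in controls. Its inputs held 149, 150 and 148 CPM in cKI mice and 143, 121 and 136 CPM in controls, while its IPs held 165, 28.6 and 72.7 CPM against 153, 125 and 30.4 CPM. cKI replicate 2 and control replicate 3 were lowest, with inputs like those of the other mice.

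The same 2 mice were lowest for 3 other granule markers. C1ql2, a synaptic organiser of mossy fibres, had ratios of 0.81, -1.40 and -0.22 against 0.69, 0.60 and -1.89. Stxbp6 had ratios of 0.42, -1.97 and -0.71 against 0.39, 0.20 and -2.01, and Plk5 0.92, -1.01 and -0.09 against 0.92, 1.15 and -1.38. The median of the 15 markers was 0.48, -1.01 and -0.22 in cKI mice and 0.58, 0.46 and -1.38 in controls. Its spread over the 6 mice was taken gene by gene, and the median range was 1.91, against 0.38 over all genes.

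No granule marker passed the genotype test, and 0 of 15 lay apart in either direction (10.8% of all genes). The median difference was -0.27, and it changed sign without cKI replicate 2, without control replicate 1 or without control replicate 2. For Prox1 the difference was -0.45 with an SE of 1.02 (95% interval -3.20 to 2.30), which leaves a genotype difference of several fold undetectable. C1ql2, Stxbp6 and Plk5 differed by -0.15, -0.32 and -0.35 with SEs of 1.02, 1.01 and 0.92. The CA1 and CA3 pyramidal cell lists had medians of 0.01 and -0.01.

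**Figure D5:**
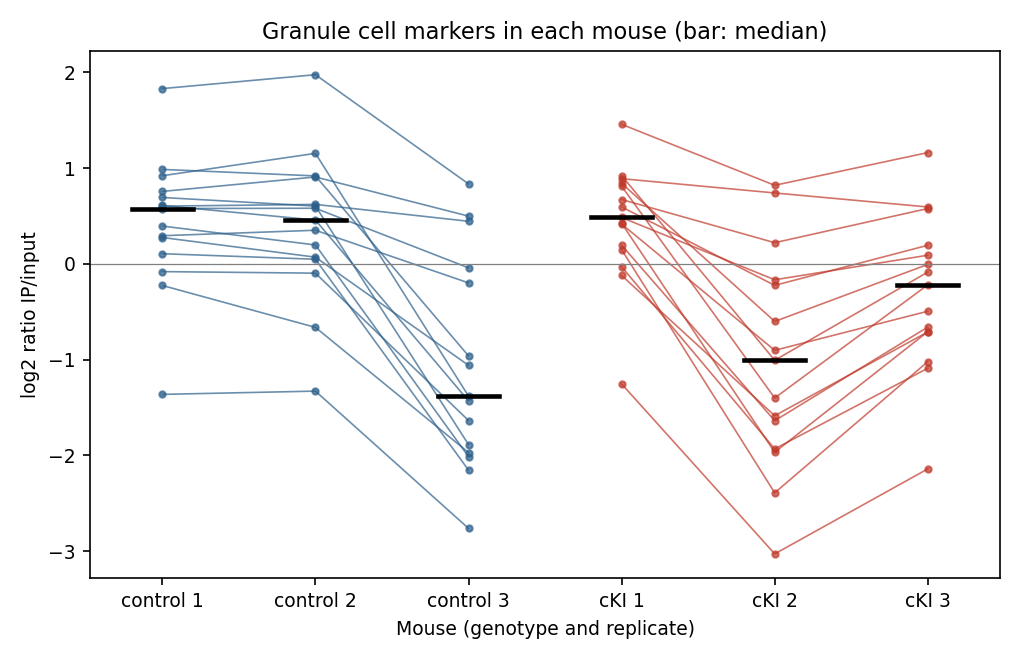
Log2 IP-to-input ratio of 15 granule cell markers in each mouse (y axis), with lines joining a gene's values within a genotype and black bars for the median of each mouse. Control replicate 3 at a median of -1.38 and cKI replicate 2 at -1.01 are low, control replicates 1 and 2 and cKI replicate 1 lie between 0.46 and 0.58, and cKI replicate 3 is between them.

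With the lowest mouse of each genotype left out, cKI replicate 2 and control replicate 3, edgeR called 3 genes higher and 1 lower over 2 mice per group. They were Rcan2 at 0.60, CTGF at 1.35 and Cplx3 at 1.46, with adjusted p of 0.0489, 0.0256 and 0.0312, and Gpnmb at -1.42 with 0.0273. This alternative was chosen after the data had been seen. Under it Wnt4 differed by -1.19 (adjusted p 0.0943) and the nuclear oxidative phosphorylation list had a median of 0.03.

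The same comparison in naive mice, other animals of the same genotypes that were not conditioned, also called 0 genes in either direction with edgeR (0% and 0%), with 1977 (14.1%) at an unadjusted p under 0.05. DESeq2 called 75 higher and 100 lower in naive mice. Without naive control replicate 1 edgeR called 143 higher and 40 lower. Without naive control replicate 2 it called 0, with 796 genes at an unadjusted p under 0.05. The naive list medians given above were not recomputed without single mice. The difference between the training states was itself tested, and edgeR called 0 genes (0% in each direction), with 939 (6.7%) at an unadjusted p under 0.05, while DESeq2 called 1 higher, Sema3a.

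Wnt4 stood lower in cKI mice in both training states. Its naive ratios were -1.54, -1.31 and -0.85 in cKI mice and -0.01, -0.12 and 0.43 in controls, a difference of -1.33 (SE 0.22, adjusted p 0.26 in edgeR). The training states differed by 0.19 (SE 0.28). As the mean over both states, an analysis of 6 against 6 mice added after the data had been seen, the Wnt4 ratio fell by 1.23 (SE 0.14, adjusted p 0.0111 in edgeR) and was the only gene called. Map3k6, on the same chromosome, also had a lower ratio in both states. It differed by -1.31 in conditioned and -1.73 in naive mice (adjusted p 0.93 and 0.26 in edgeR). Whether the 2 differences have a common cause was not tested.

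Several named genes had other values in naive mice, Manba and Sema3a among them. The naive ratios of Manba were -0.62, -1.07 and -1.06 in cKI mice and -1.13, -0.67 and -1.09 in controls, which overlapped, and the training states differed by 0.94 (SE 0.24, p 0.00172, adjusted p 0.70 in edgeR). Sema3a stood at -0.54, -0.16 and -0.17 in naive cKI mice and at 0.57, 0.55 and 0.70 in naive controls, opposite in sign to the conditioned mice. Its training states differed by 1.69 (SE 0.27, adjusted p 0.34 in edgeR), and the adjusted p was 0.0226 with DESeq2. Tsc22d3 also had the opposite sign in naive mice, at -0.34 (SE 0.14), and its training states differed by 0.71 (SE 0.16, adjusted p 0.70 in edgeR). Naive differences were 0.02 for Relt, -0.07 for Arrdc2, -0.05 for Fstl4 and 0.38 for Kctd12. Other named genes kept their sign, among them Grin2a at -0.48, Epha6 at -0.73, Cadm2 at -0.41 and Kcnj6 at -0.36. Il17rd differed by 1.11 (SE 0.26) in naive mice and 0.71 (SE 0.18) in conditioned mice.

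Eif2s1, Atf4 and Eif5 had naive ratio differences of -0.02 (SE 0.12), -0.16 (SE 0.11) and 0.06 (SE 0.08), and none passed in either state. Prox1 ratios varied among naive mice too, from -0.20 to 0.67 in cKI mice and from -1.93 to 0.23 in controls. The median difference of the granule list was 1.02 in naive mice, against -0.27 in conditioned mice. The naive value was not recomputed without single mice.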

How the data were processed

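Poly(A) RNA libraries of hippocampal input and HA immunoprecipitate were compared in 6 conditioned mice. The values are the raw read counts per gene that the authors deposited. Cutadapt, Bowtie and DESeq2 are listed in the submitters' processing notes, while a counting tool, genome build or strand setting is not given in the sources used here. Of the symbols 92.1% matched the name tables, and 26 had been turned into dates. The software was edgeR 4.0.16, limma 3.58.1 and DESeq2 1.42.0, run in R 4.3.3. The ratio difference was tested with the robust quasi-likelihood test of edgeR on the counts, with TMM scaling over 12 libraries, 1 term per mouse, a fraction term and a fraction by genotype term, and Benjamini-Hochberg adjustment over 14024 genes at 0.05. An adjusted p without a named tool is from this test. Genes needed a CPM of 1 or more in 6 libraries. Components were fitted with 1 mean per group over the same libraries and no mouse term, so the input and IP of a mouse were taken as independent. Printed ratios use log2 CPM with a prior count of 2. The size of the estimates was checked on counts simulated from the fitted model. False or missed calls were not a condition of that check.

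Named genes were up to 10 per direction past the threshold, filled with the smallest p, having a mean log2 CPM of 2 or more, no overlap between groups and no clone name, plus up to 4 members per list and a fixed set. The text prints a selection, and some genes are not reported here. The members and the 34 lists were chosen with earlier results of these data known. Input and IP of a number come from 1 mouse by the titles. Their deviations from the group means correlated by 0.097 to 0.54. Exact permutation of 3 against 3 mice cannot give a p under 0.1, so none is printed. Alternatives covered scaling, tool, prior count, filter, mouse term, lane and single mice.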

Additional observations from a re-analysis of the deposited data

How the results depend on the processing

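The 0 calls for the ratio difference held in 20 alternatives for higher genes except 1 and for lower genes except 3. DESeq2 and the fit without a low-count filter each gave 1 lower (Wnt4), and leaving out cKI replicate 2 and control replicate 3 together, chosen after seeing the data, gave 3 higher and 1 lower. Single mice left out gave 0 throughout. Wnt4 ranged from -1.24 to -1.01, with adjusted p from 0.00107 to 0.996. Plain library totals gave 3344 genes higher in control IPs. DESeq2 gave 56 higher and 88 lower in IP, 44 and 65 in input, 75 and 100 in naive mice and 1 higher between training states. A fraction fitted alone gave 3 and 2 in IP, and 210 and 273 in input.

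With the replicate number as a replicate block there were 1 and 2 calls in IP, and 164 and 229 in input, and the ratio had 0 calls with 709 genes at an unadjusted p under 0.05. Ratio deviations of same-numbered mice of the 2 genotypes correlated by 0.42, -0.049 and 0.21. Mice of unlike number were not compared, so these values do not decide whether the numbers pair the genotypes. Without the mouse as a block the ratio also had 0 calls.

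Leaving out 1 mouse gave 6 to 20 higher and 4 to 22 lower in IP, 2 to 8 and 0 to 9 in input, and 0 to 143 and 0 to 40 in naive mice. It moved these differences across 0: Atf4 -0.11 to 0.069, Arc -0.15 to 0.029, Mospd3 -0.28 to 0.081, Rpl22 -0.028 to 0.17, Rpl22l1 -0.21 to 0.32, Gad1 -0.41 to 0.095, Prox1 -1.12 to 0.16, C1ql2 -0.88 to 0.37, Stxbp6 -1.01 to 0.25 and Plk5 -1.05 to 0.12. In the fit of all 24 libraries with lane and no mouse term, which changes 3 choices at once, Atf4 was 0.16, Arc 0.063 and Mospd3 0.055. Without cKI replicate 2 and control replicate 3 Rpl22 was -0.044, Rpl22l1 -0.37 and Gad1 0.053. The cause was not tested. Over 79 named genes and all alternatives, 1549 values kept sign and side of the threshold, 23 changed sign and 2, both of Wnt4, passed the threshold. Depth limits genes under a mean log2 CPM of 2, whose median SE was 0.308.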

Other observations

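Map3k6 and Wnt4 were both lower in cKI than in control IPs and are on the same chromosome in the order of the RefSeq annotation of GRCm38.p6, with 56 tested genes between them. Of these 56, 0 had all cKI ratios above the controls (4.75% of all genes) and 5 had them below (6.1%). Together these were 8.93% against 10.8% of all genes, and the median ratio difference was -0.01. A difference shared by IP and input cancels in the ratio. The IP and input levels of the 56 were tested only among all genes, and calls within the region were not counted. The ratio values therefore do not decide whether levels in the region differ. The neighbours were looked at after the values were seen. Map3k6 differed by -1.73 (SE 0.39) in the ratio of naive mice.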
